A study of Mus musculus with 8 samples.

Results

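The genes described here are 10 club and airway secretory genes of the mouse lung epithelium: Scgb1a1, Scgb3a1, Scgb3a2, Cbr2, Bpifa1, Bpifb1, Reg3g, Muc5b, Gabrp and Hp. They were chosen by name, with earlier results of these data known. All 10 were measured, each by 1 probe set that the platform annotation assigns to that symbol alone, out of 19938 genes measured in this way. The samples were Epcam+ epithelial cells from lungs of E18.5 mouse embryos, taken on magnetic beads after dissociation of the tissue. The 4 knockout arrays came from embryos labelled Mst1/2 CKO, in which the Hippo kinases Mst1 and Mst2 (genes Stk4 and Stk3) were deleted by ShhCre, a Cre recombinase active in epithelial progenitors of the developing lung, airway and alveolar lineages alike. The 4 control arrays came from embryos labelled only as control, with no further statement of their alleles in the sources used here. The labels name each array a biological replicate without saying whether it stands for 1 embryo or a pool. The p-values therefore set a difference against the spread between these arrays, which need not be that between embryos.

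Club cells are secretory cells of the conducting airways that detoxify inhaled compounds, release defence proteins into the airway lining and renew the airway epithelium. Their best known product is the secretoglobin Scgb1a1, and other secretory cells of the airway add mucins, lectins and proteins of the BPI fold family to the airway lining fluid. The Hippo kinases act through Lats1 and Lats2 to keep the coactivators Yap and Taz out of the nucleus, and the comparison asks which transcripts differ when the kinases are deleted from the epithelium.

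Of the 10 genes 7 fell in knockout cells, 0 rose and 3 did not pass the test (limma, Benjamini-Hochberg adjusted p under 0.05 over all 19938 genes). Among all genes 10.2% fell and 8.6% rose by the same rule. Because earlier results were known when the genes were chosen, the contrast with all genes is a description and was not tested. All 10 differences were below 0, as were those of 55% of all genes, and the median difference was -0.59 on the log2 scale, against -0.02 over all genes. The largest falls were those of the BPI fold protein gene Bpifb1 and the lectin gene Reg3g, 2.68-fold and 2.63-fold, and the smallest difference was that of Bpifa1. In 5 of the 10 genes every knockout array lay below every control array, which was so for 11.9% of all genes. Because whole cell populations were measured, fewer secretory cells and less RNA per cell cannot be told apart.

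**Figure D1:**
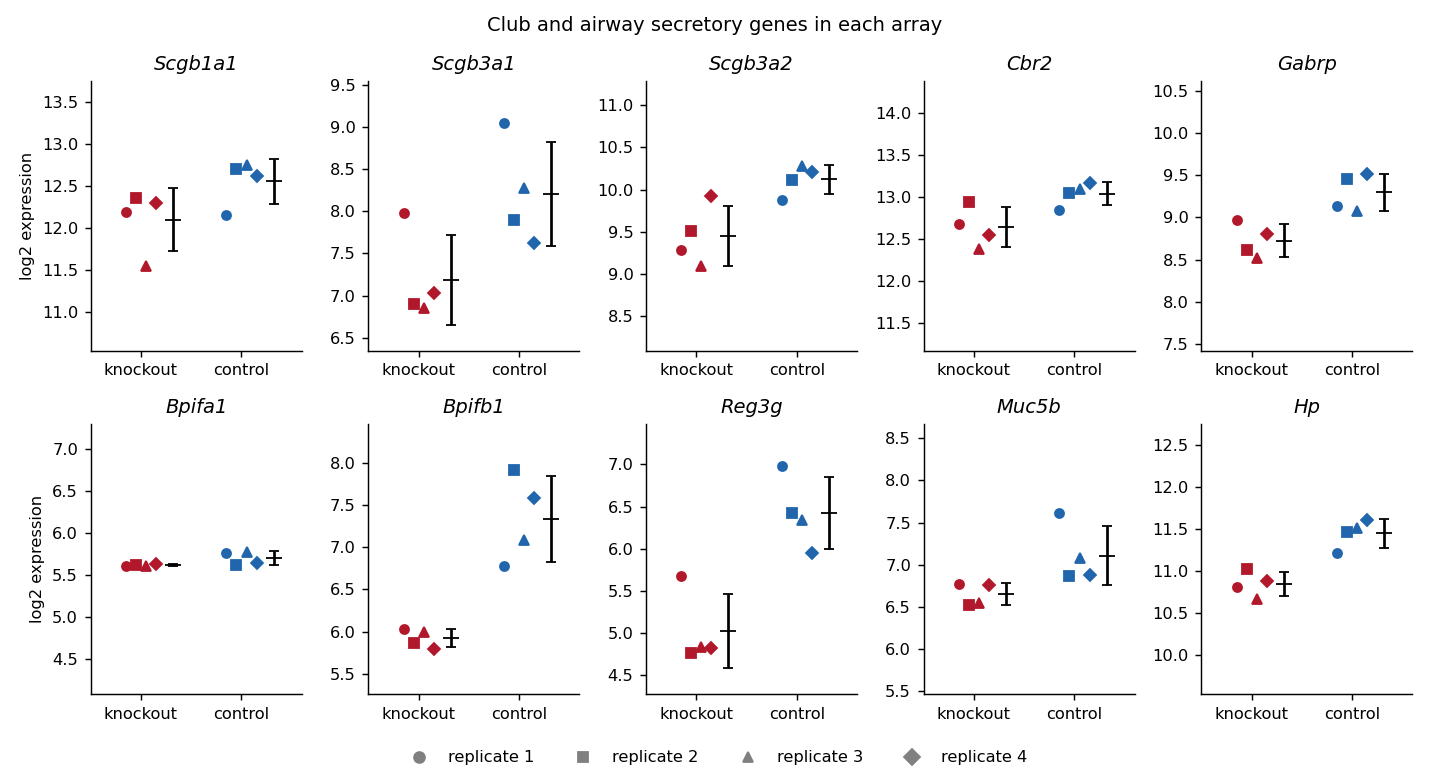
Log2 expression of the 10 genes in each of the 4 knockout arrays (red) and 4 control arrays (blue), with the group mean and SD beside the points; every panel spans the same range of log2 units, and panels are not to be compared in level. Knockout arrays lie below all control arrays in Bpifb1, Reg3g, Muc5b, Gabrp and Hp, and the groups overlap in the other 5 genes.

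**Figure D2:**
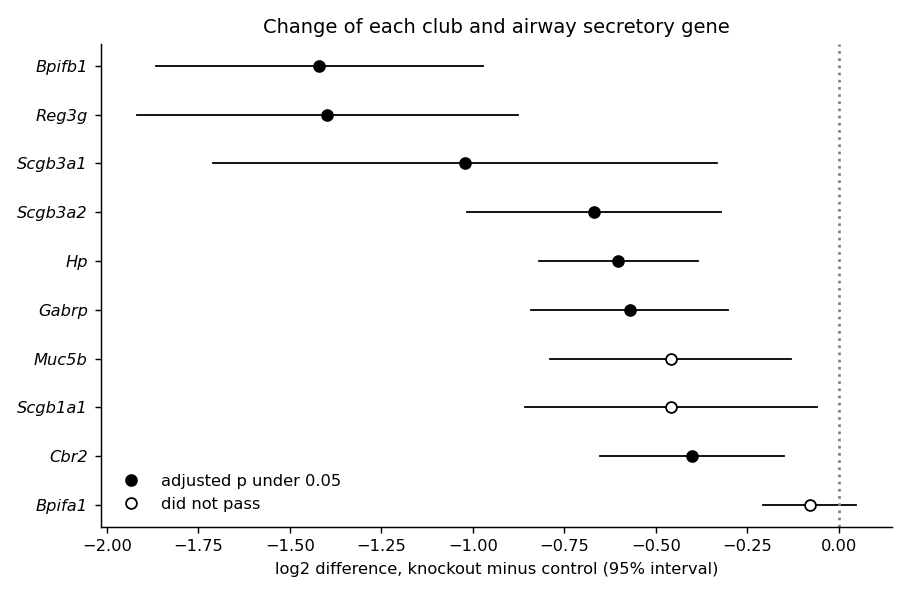
Log2 difference, knockout minus control, of each gene with its 95% interval from limma (filled points, adjusted p under 0.05; open points, did not pass). The estimates lie between -1.42 for Bpifb1 and -0.08 for Bpifa1.

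RefSeq promoter windows on GRCm38.p6, from 250 bases before to 50 bases after a transcript start, were at hand for 6 of the 10 genes: Scgb3a1, Cbr2, Bpifa1, Bpifb1, Reg3g and Gabrp. They were searched on both strands for GGAATG (TEAD factors, the DNA-binding partners of Yap), TGTTTNC (FOXA factors), CAAGTG (NKX2-1), TTGCNNAA (C/EBP factors) and TTCNNNGAA (STAT factors), and any match is printed in capitals. A window each is shown for the 3 genes that hold the FOXA letters and for Reg3g, 1 of the 2 genes with the largest falls, which holds none of the 5.
Scgb3a1, chr11:49663345-49663644, strand +: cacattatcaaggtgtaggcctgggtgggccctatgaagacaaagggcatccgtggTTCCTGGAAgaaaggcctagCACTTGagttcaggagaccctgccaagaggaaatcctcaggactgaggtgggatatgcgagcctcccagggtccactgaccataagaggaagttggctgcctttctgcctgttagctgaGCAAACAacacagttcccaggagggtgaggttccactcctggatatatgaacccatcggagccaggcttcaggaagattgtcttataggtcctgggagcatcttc
Cbr2, chr11:120731972-120732271, strand -: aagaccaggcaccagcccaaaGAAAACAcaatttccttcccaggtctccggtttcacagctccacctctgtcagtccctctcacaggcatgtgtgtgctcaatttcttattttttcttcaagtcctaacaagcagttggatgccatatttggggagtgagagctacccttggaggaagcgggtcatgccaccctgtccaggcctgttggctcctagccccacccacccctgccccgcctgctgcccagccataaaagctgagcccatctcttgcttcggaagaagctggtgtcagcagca
Bpifb1, chr2:154190568-154190867, strand +: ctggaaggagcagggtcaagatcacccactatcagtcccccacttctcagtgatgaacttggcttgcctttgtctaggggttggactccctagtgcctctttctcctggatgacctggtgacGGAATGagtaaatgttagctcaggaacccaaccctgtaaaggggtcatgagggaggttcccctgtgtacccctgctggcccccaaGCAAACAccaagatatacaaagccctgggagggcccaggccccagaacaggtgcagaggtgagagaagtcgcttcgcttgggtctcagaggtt
Reg3g, chr6:78468825-78469124, strand -: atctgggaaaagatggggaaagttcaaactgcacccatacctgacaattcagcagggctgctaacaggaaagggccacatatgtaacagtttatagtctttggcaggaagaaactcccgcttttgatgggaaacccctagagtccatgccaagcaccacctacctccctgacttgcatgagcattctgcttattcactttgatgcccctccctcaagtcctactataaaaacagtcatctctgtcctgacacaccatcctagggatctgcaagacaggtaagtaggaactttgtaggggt
The FOXA letters stood on the reverse strand in Scgb3a1 (its leftmost base at -55 from the start), Cbr2 (-229) and Bpifb1 (-43), that is in 3 of 6 genes, and in 20.5% of all 32851 windows. These units differ: a gene counts with a match in any of its windows, while the shares are over single windows. The printed Bpifb1 window also holds the TEAD letters on the forward strand at -128, the only match to them among the 6 genes, against 14.7% of all windows. Scgb3a1 holds the NKX2-1 letters on the reverse strand at -174 and the STAT letters at -194, found in 13.6% and 8.3% of all windows, and a second Bpifb1 window, not printed, holds the STAT letters too. The C/EBP letters (10.8% of all windows) were in 0 of the 6 genes. Bpifa1, Reg3g and Gabrp matched none of the 5. These matches describe the letters of the windows and are not measured binding sites.

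The secretoglobins are small secreted proteins of mucosal surfaces, and 3 of them are airway products. Scgb1a1, the classical club cell protein (probe set 10465840), read 12.19, 12.35, 11.55 and 12.30 in knockout replicates 1 to 4 on the log2 scale, against 12.16, 12.71, 12.74 and 12.61 in control replicates 1 to 4. Knockout replicate 3 was lowest, and control replicate 1 lay below the other 3 knockout arrays, so the groups overlapped. The means were 12.10 ± 0.37 in knockout and 12.56 ± 0.27 in control cells (SD, n = 4 each), and the difference of -0.46 (SE 0.18, 95% interval -0.86 to -0.06) did not pass (limma adjusted p = 0.114). Both of these arrays bear on it: the limma difference was -0.27 (adjusted p = 0.242) without knockout replicate 3 and -0.59 (adjusted p = 0.0462) without control replicate 1.

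Scgb3a1, a secretoglobin of larger airways (probe set 10375608), read 7.98, 6.90, 6.85 and 7.03 in knockout arrays, against 9.04, 7.90, 8.27 and 7.62 in control arrays. Replicate 1 was the highest array of either group, and knockout replicate 1 lay above control replicates 2 and 4. It fell 2.03-fold (log2 difference -1.02, SE 0.31, limma adjusted p = 0.0436). That call did not outlast the loss of most single arrays: the adjusted p was 0.0948, 0.0531 and 0.103 without control replicates 1, 2 and 3 and 0.107, 0.124 and 0.0763 without knockout replicates 2, 3 and 4, while without knockout replicate 1 it was 0.00902 (difference -1.28).

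Scgb3a2, a secretoglobin found in club cells from early in airway development (probe set 10455389), read 9.28, 9.51, 9.10 and 9.92 in knockout arrays, against 9.88, 10.11, 10.28 and 10.21 in control arrays. Only knockout replicate 4 reached the control range, just above control replicate 1. It fell 1.59-fold (-0.67, SE 0.16, limma adjusted p = 0.0124), and the call held without any 1 of the 8 arrays.

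Among 7 measured genes of the secretoglobin family 3 fell and 0 rose, with a median of -0.46. The fall furthest from 0 was that of Scgb1c1, a family member outside the 10 genes, which read 7.51, 6.90, 6.62 and 6.71 in knockout arrays, against 9.43, 10.26, 10.01 and 9.33 in control arrays. Its groups lay far apart, and it fell 7.08-fold (-2.82, SE 0.23, limma adjusted p = 2.24e-05). Scgb1b2, Scgb2a2 and Scgb1b27, named here after their values were seen, differed by -0.09, 0.07 and -0.04 and did not pass.

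Among the remaining genes linked to club cells are an enzyme and a channel subunit. Cbr2, a carbonyl reductase that is abundant in mouse lung (probe set 10393936), read 12.67, 12.94, 12.38 and 12.55 in knockout arrays, against 12.85, 13.05, 13.09 and 13.17 in control arrays. Knockout replicate 2 lay above control replicate 1, and the other knockout arrays lay below all controls. It fell 1.32-fold (-0.40, SE 0.11, limma adjusted p = 0.0319). Its values are close to the brightest of the arrays (13.69 to 13.95), where whether a larger fall could show was not tested. The call ended without any 1 of control replicates 2, 3 and 4 (adjusted p = 0.0665, 0.0851 and 0.0844) and of knockout replicates 1, 3 and 4 (0.0545, 0.0891 and 0.0604). In the carbonyl reductase family 3 of 5 measured genes fell: Cbr2, Cbr1 (-0.38, SE 0.12, adjusted p = 0.0495) and Dcxr, which encodes a dicarbonyl and xylulose reductase and lies next to Cbr2 on chromosome 11 (-0.67, SE 0.079, adjusted p = 1.84e-04). The number fell to 1 without control replicate 2, 3 or 4 or knockout replicate 1, 3 or 4.

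Gabrp, the pi subunit of GABA-A receptor chloride channels (probe set 10385083), read 8.96, 8.62, 8.52 and 8.80 in knockout arrays, against 9.14, 9.45, 9.08 and 9.52 in control arrays. The groups did not overlap, although knockout replicate 1 came close to control replicate 3. It fell 1.49-fold (-0.57, SE 0.12, limma adjusted p = 0.00726). Of 16 measured genes for GABA-A subunits and for GABA synthesis and breakdown 2 fell and 0 rose, and the median was -0.0044. The other gene that fell was the epsilon subunit Gabre (7.61 ± 0.082 in knockout and 8.28 ± 0.080 in control cells, SD, n = 4 each, difference -0.68, SE 0.065). Gabra3, the next by p, did not pass (0.19, SE 0.074, adjusted p = 0.112).

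Proteins of the BPI fold family are secreted into the airway, where they bind lipids and bacterial products. Bpifb1, a long family member of airway glands and goblet-type cells (probe set 10477495), read 6.03, 5.87, 5.99 and 5.80 in knockout arrays, against 6.78, 7.92, 7.08 and 7.58 in control arrays. The knockout arrays lay within a narrow band well below a spread-out control group. It fell 2.68-fold (-1.42, SE 0.20, limma adjusted p = 6.29e-04). The knockout values were near the lower quartile of all probe sets on the arrays (5.76 to 5.86); background differs between probe sets and is not known for this gene, so the fall may be a lower bound.

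Bpifa1, the short palate, lung and nasal clone protein (probe set 10477475), read 5.61, 5.62, 5.60 and 5.64 in knockout arrays, against 5.76, 5.61, 5.78 and 5.64 in control arrays. All 8 values lay close together, and the difference of -0.08 (SE 0.058, 95% interval -0.21 to 0.05) did not pass (limma adjusted p = 0.426). At these low readings in both groups, whether the gene was above its background is not known. Among 16 measured BPI fold genes 3 fell and 0 rose, with a median of -0.07. The other falls were those of Lbp, the lipopolysaccharide-binding protein (3.43-fold, -1.78, SE 0.14, adjusted p = 1.86e-05), and Bpifb5 (8.11 ± 0.047 in knockout and 9.11 ± 0.34 in control cells, SD, n = 4 each, limma adjusted p = 5.02e-04). Bpifa1 and Bpifb1 lie in a run of family genes on chromosome 2, in which the measured neighbours Bpifa2, Bpifa3 and Bpifa5 did not pass (-0.05, -0.06 and -0.16), while Bpifb5 fell on the far side of Bpifb1.

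**Figure D3:**
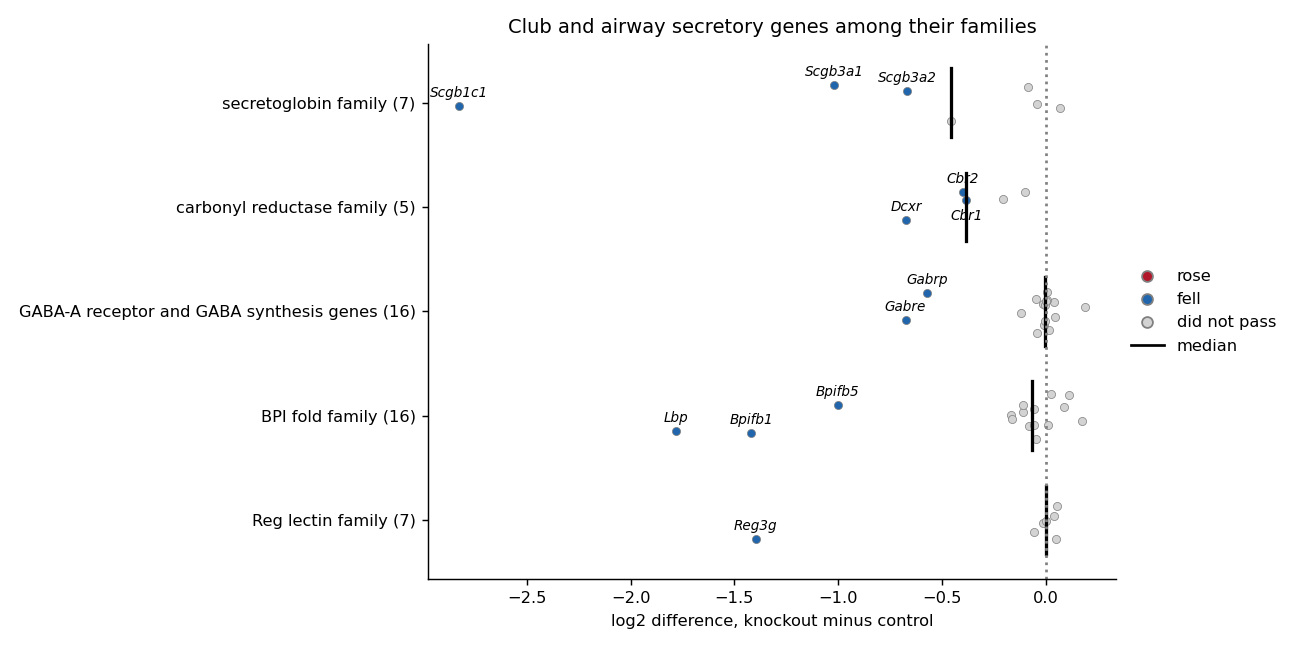
Log2 difference, knockout minus control, of every measured gene in the families of the club and airway secretory genes, a row to a family with its number of genes; points are coloured by the limma call and black bars are medians. The genes that fell stand away from the rest of their family in the BPI fold, Reg and GABA-A rows, and Scgb1c1 lies furthest from 0.

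Reg3g, a C-type lectin that kills Gram-positive bacteria (probe set 10545569), read 5.68, 4.77, 4.83 and 4.83 in knockout arrays, against 6.99, 6.42, 6.34 and 5.95 in control arrays. The groups did not overlap, and knockout replicate 1 stood well above the other knockout arrays. It fell 2.63-fold (-1.40, SE 0.24, limma adjusted p = 0.00183). Knockout replicates 2 to 4 read low for the arrays, so that fall too may be a lower bound. The other 6 measured genes of the Reg family did not pass and differed little, among them Reg1 (-0.06, SE 0.076) and Reg3b (0.05, SE 0.070), the closest in p. Reg1 and Reg2 lie beside Reg3g on chromosome 6.

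Muc5b, the gel-forming mucin of the mouse airway surface (probe set 10559095), read 6.77, 6.52, 6.55 and 6.76 in knockout arrays, against 7.61, 6.86, 7.08 and 6.87 in control arrays. Each knockout array lay below each control array, though the nearest pair lay close, and control replicate 1 stood above the rest. The difference was -0.46 (SE 0.15, 95% interval -0.79 to -0.13) and did not pass (limma adjusted p = 0.0557). It was -0.29 without control replicate 1, while the adjusted p fell to 0.0406 without control replicate 2 and to 0.0423 without control replicate 4. The mucin genes next to it on chromosome 7, Muc5ac and Muc2, did not pass either (-0.18, SE 0.087, and -0.10, SE 0.087).

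Hp, haptoglobin, a haemoglobin-binding protein of the acute phase response (probe set 10581605), read 10.81, 11.03, 10.67 and 10.87 in knockout arrays, against 11.21, 11.46, 11.51 and 11.61 in control arrays. The groups did not overlap, and the spread within each was small. It fell 1.52-fold (-0.60, SE 0.098, limma adjusted p = 0.00143). Among 22 measured acute phase and airway defence genes 12 fell and 0 rose, with a median of -0.34. Those with the smallest p were Lbp, the cytokine signalling inhibitor Socs3 (-0.79, SE 0.064) and the lysozyme gene Lyz2 (-0.93, SE 0.086); Lyz2 read 12.22 ± 0.15 in knockout and 13.15 ± 0.12 in control cells (SD, n = 4 each), and its near-identical copy Lyz1 may share its signal.

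Whether the genes fell by unequal amounts was examined through each gene's log2 value minus that of Scgb1a1 on the same array, in 9 comparisons. Bpifb1 differed from Scgb1a1 by -6.18 ± 0.44 in knockout and -5.21 ± 0.39 in control arrays (SD, n = 4 each), a further difference of -0.96 (SE 0.25, limma adjusted p = 0.00393 over 19937 genes). Reg3g differed from Scgb1a1 by -7.07 ± 0.54 in knockout and -6.13 ± 0.66 in control arrays (SD, n = 4 each). For Reg3g the further difference was -0.94 (SE 0.25, limma adjusted p = 0.00522). By this rule 10.4% of all genes differed relative to Scgb1a1 in either direction, and 0.923% fell. Every gene of that fit shares the values of Scgb1a1, which narrows the estimated spread. The SE of 0.25 was the same for all 9 genes, a pooled value and not each gene's own. The exact two-sided permutation test over the 70 assignments of the arrays gave p = 0.0571 for both genes, where 0.0286 is the smallest p possible. The limma call for Bpifb1 also ended without control replicate 2 (adjusted p = 0.0843). The other 7 genes did not pass in either test, with further differences from -0.56 (Scgb3a1) to 0.38 (Bpifa1). Bpifa1 itself read low in both groups and differed by only -0.08. Its value here therefore mostly returns the -0.46 of Scgb1a1 with the sign turned. Without knockout replicate 3 that of Scgb3a1 passed in limma (-0.63, adjusted p = 0.0246), and without control replicate 1 so did that of Bpifa1 (0.53, adjusted p = 0.0482). The same leave-outs shrank the other value of the pair: Scgb3a1 stood at -0.15 (adjusted p = 0.555) without control replicate 1 and Bpifa1 at 0.20 (adjusted p = 0.441) without knockout replicate 3.

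The genes did not follow a single order over the arrays. Knockout replicate 3 was the lowest knockout array in 7 of the 10 genes, and knockout replicate 1 was the highest in 5. Scgb3a1, Reg3g and Muc5b were each highest in replicate 1 of both groups. Scgb1a1, Scgb3a2, Cbr2 and Hp were each lowest in control replicate 1 and in knockout replicate 3. These sets of 3 and 4 genes were picked after their values were seen.

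**Figure D4:**
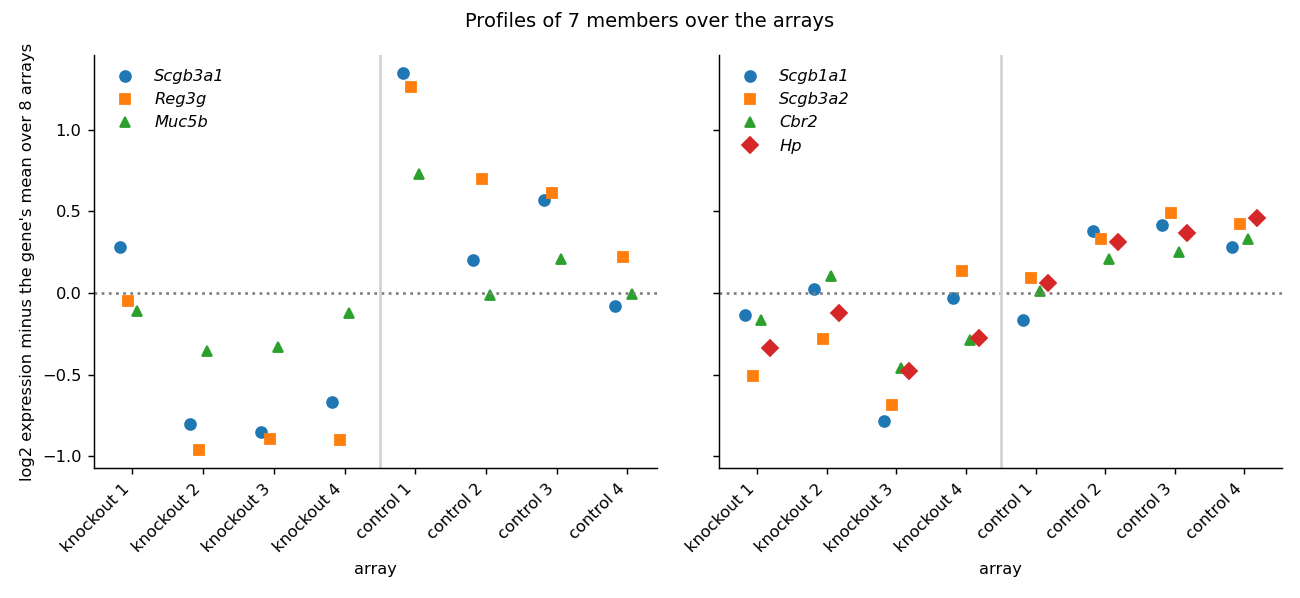
Log2 expression minus the gene's own mean over the 8 arrays, for Scgb3a1, Reg3g and Muc5b (left) and Scgb1a1, Scgb3a2, Cbr2 and Hp (right), with knockout arrays left of control arrays. On the left replicate 1 is the highest array of each group; on the right control replicate 1 is the lowest control array and knockout replicate 3 the lowest knockout array.

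Likeness of profiles was measured as the root mean square distance over the 8 arrays between log2 values, each gene centred on its own mean. This keeps the difference between the groups, so a near gene is in large part a gene with a similar fall. Hp, for example, differed by -0.60, and its nearest genes Rsph14, Zmynd10 and Slc5a1 by -0.62, -0.63 and -0.61. Whether near genes share a regulator was not tested. The nearest pair among the 10 genes was Cbr2 and Hp, 0.126 apart. Of all other genes measured, the nearest to Scgb3a1 was Reg3g (0.257), followed by Pla2g4f (0.361) and Nsun7 (0.372). Nsun7 itself did not pass (-0.54, limma adjusted p = 0.248). Nearest to Hp were Rsph14, Zmynd10 and Slc5a1 (0.0451 to 0.0707), and nearest to Cbr2 were Lrriq1, Armc4 and Pla2g4a (0.0454 to 0.0784). Scgb3a2 lay nearest to Meig1, Hydin and Cfap65 (0.0935 to 0.111), and Gabrp to Ifi27, Cdc14a and Kdm7a (0.104 to 0.121). For Bpifb1 the nearest were Mir376c, Rasd1 and Trf (0.201 to 0.206), and for Reg3g they were Zmat4, Sema4f and Rbpjl (0.200 to 0.243).

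Of 21 measured other genes of club cells 6 fell and 3 rose, with a median of -0.03. Chad, a matrix leucine-rich repeat protein, fell 3.94-fold (-1.98, SE 0.21), the lactate dehydrogenase subunit gene Ldhb fell 2.11-fold (-1.08, SE 0.12) and the aldehyde oxidase gene Aox3 fell 2.72-fold (-1.44, SE 0.17). The risers, picked out for their values, were the membrane protein gene Itm2a (1.13, SE 0.14), the glutathione transferase gene Gsto1 (1.09, SE 0.14) and the cytochrome P450 gene Cyp4b1 (0.26, SE 0.072). Of 19 measured goblet and mucus genes 7 fell and 1, Qsox1, rose, with a median of -0.16. The rises numbered 0 without control replicate 1 or 3 or knockout replicate 1, 2 or 3 and with each array centred on its median, and 2 without knockout replicate 4. The bacterial cell wall recognition gene Pglyrp1 fell 2.70-fold (-1.43, SE 0.090), and the membrane mucins Muc4 and Muc1 fell 3.36-fold (-1.75, SE 0.12) and 1.54-fold (-0.62, SE 0.068).

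Of 29 transcription factor and Notch genes of the airway secretory lineage 8 fell and 3 rose, with a median of -0.04. Creb3l1, a factor activated by cleavage at the secretory pathway, fell 3.13-fold (-1.65, SE 0.10), the grainyhead-like factor Tfcp2l1 fell 2.85-fold (-1.51, SE 0.11) and the Ets factor Elf5 fell 3.26-fold (-1.70, SE 0.14). The risers were the Notch ligand Jag2 (0.40, SE 0.058), Creb3l2 (0.32, SE 0.069) and the receptor Notch3 (0.41, SE 0.098), likewise picked out for their values. Nkx2-1, the lineage factor of lung epithelium, did not pass (-0.05, SE 0.084).

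**Figure D5:**
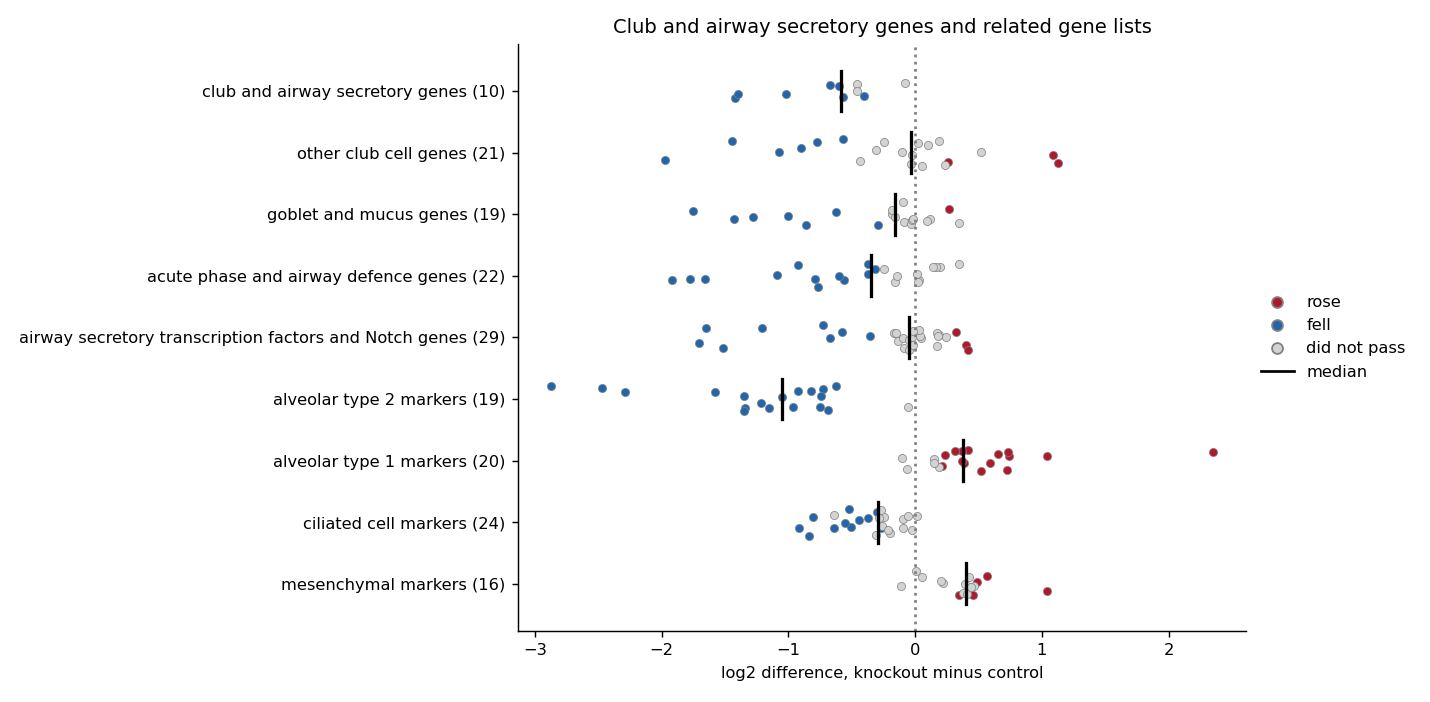
Log2 difference, knockout minus control, of each measured gene in the 10 club and airway secretory genes and 8 related lists; points are coloured by the limma call and black bars are medians. The medians lie at -0.59 for the 10 genes, -0.03 for other club cell genes, -1.05 for alveolar type 2 markers and 0.38 for alveolar type 1 markers.

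Markers of other cell types moved along with these falls, and their part in them was not tested. Of 19 alveolar type 2 markers 18 fell, and their mean per array was 10.66 to 11.36 in knockout and 12.13 to 12.35 in control arrays. Those with the smallest p were Fasn (-1.15, SE 0.079), Fabp5 (-1.58, SE 0.12) and S100g (-2.29, SE 0.18), while the lowest difference of the list was -2.87. Of 20 alveolar type 1 markers 15 rose, led by Igfbp2 (2.35, SE 0.065), with means of 11.47 to 11.64 in knockout and 10.99 to 11.15 in control arrays. Of 24 ciliated cell markers 11 fell, led by Ccno (-0.91, SE 0.083), with means of 7.65 to 8.08 in knockout and 8.07 to 8.37 in control arrays; that count was 5 without control replicate 3 or 4, 6 without knockout replicate 1 or 3, 7 without control replicate 2 and 16 without knockout replicate 4. Of 16 mesenchymal markers 5 rose, with means of 8.78 to 9.27 in knockout and 8.51 to 8.95 in control arrays. The count of rises was 2 without control replicate 1, 2 or 3 or knockout replicate 3 or 4 and 9 without knockout replicate 1. Vim had the smallest p (0.35, SE 0.062), though the median difference of the list was 0.40 and the highest 1.04. With the mesenchymal mean as a covariate 4 of the 10 genes fell (Scgb3a2, Bpifb1, Reg3g and Hp), Reg3g by less (-0.89, limma adjusted p = 0.0437, against -1.40 without the covariate), and Scgb3a1 was at -0.39 (limma adjusted p = 0.583), while over all genes 985 fell and 776 rose in place of 2031 and 1715. The mesenchymal mean itself lay higher in knockout arrays, and only control replicate 4 (8.95) reached their range. The covariate thus takes up part of the group difference, and the shares of the mesenchymal mean and the group cannot be told apart.

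Some of the lists share genes, so their counts are not separate. Muc1 is in the goblet and the alveolar type 2 lists, Lbp in the BPI fold and the acute phase lists, and Pdpn in the alveolar type 1 and the basal cell lists. The remaining marker lists give the setting. Rises and falls numbered 5 and 0 of 10 for endothelial, 1 and 1 of 17 for leukocyte, 0 and 0 of 5 for erythroid, 2 and 0 of 6 for mesothelial, 6 and 1 of 12 for basal cell, 1 and 2 of 9 for neuroendocrine and 3 and 1 of 10 for general epithelial genes. Without control replicate 4 the endothelial rises numbered 8 and the general epithelial rises 5, and without control replicate 2 or 3 or knockout replicate 1, 2 or 3 the general epithelial rises numbered 1. The leukocyte rises numbered 4 without control replicate 2 and 0 without control replicate 1, 3 or 4 or knockout replicate 2 or 3. The neuroendocrine rise was lost without control replicate 2 or 3 or knockout replicate 1, 2 or 3, and the falls numbered 1 without control replicate 2 or 3 or knockout replicate 1 or 2. Epcam, on which the cells were selected, read 10.07 ± 0.17 in knockout and 10.06 ± 0.15 in control cells (SD, n = 4 each). Knockout replicate 4 read lowest of all arrays for Epcam (9.84). It also had the highest mesenchymal (9.27), mesothelial (9.90) and erythroid (6.60) means of all arrays. The bearing of this array's make-up on the falls was not tested. Stk4 fell by 0.30 (SE 0.076, limma adjusted p = 0.0188), but whether its probe set lies in the deleted part is not known. Stk3 was sought but is not among the 19938 genes measured, so its deletion could not be checked here.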

How the data were processed

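The table holds log2 expression values per probe set as deposited by the authors, for 35556 probe sets on 8 arrays; the log2 scale was read from the values (array medians 7.21 to 7.30), and the software and normalization are not stated in the labels or the file. RNA was labelled with biotin after Affymetrix protocols, per the labels' protocols. The arrays had nearly the same distribution, so a difference is relative to the whole array, and no further scaling was applied. Their number limits the precision. Of the probe sets 21789 have 1 gene symbol in the platform annotation, 1621 several and 12146 none listed; 21698 of the first matched RefSeq (GRCm38.p6) by gene number, with 0 symbols changed. The probe set with the highest mean stood for each of the 999 genes with several. No genome build is named for the probe sets, so their coordinates are not printed.

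Each gene was tested in R 4.3.3 with limma 3.58.1 (linear fit, then empirical Bayes moderation), knockout over control without covariates, two-sided, over all 19938 genes. Errors of differences are moderated standard errors. The procedure was tested on simulated data. The 10 genes, the gene lists and the alternatives were chosen with earlier results of these data known. Genes named are the 10, the 3 with the smallest p of each list, the 3 nearest by profile to each called gene, Stk4 and Epcam, and others where said. Same-numbered arrays did not deviate together (correlations -0.08 to 0.10), so the numbers were not treated as pairs.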

Additional observations from a re-analysis of the deposited data

Results flagged for a closer look

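Within groups of 4 arrays a value was singled out when its gap to the nearest other array was over 0.829 of the group's range (Dixon's test); of 60 groups examined 4 stood out, and chance alone gives about 1 in 20. Scgb3a1 read 7.98 in knockout replicate 1, against 6.85 to 7.03 in the other knockout arrays. Reg3g read 5.68 in knockout replicate 1, against 4.77 to 4.83 in the other knockout arrays. The mean of the basal cell markers was 7.51 in control replicate 2, against 7.64 to 7.66 in the other control arrays. The mean of the erythroid markers was 6.41 in control replicate 3, against 6.38 in each of the other control arrays.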

How the results depend on the processing

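Under 17 alternatives (scaling, filter, probe set choice, fit, block, covariate and arrays left out) all 166 values of the 10 genes stayed below 0. Some could not differ: the block, the filter, the probe set choice (1 probe set per gene) and changed variance moderation repeat the main differences and bear only on the calls. Scgb3a2, Bpifb1, Reg3g and Hp kept their call in every alternative that held them, Reg3g at -0.89 under the mesenchymal covariate. Bpifa1, Bpifb1, Reg3g and Muc5b are left out when only genes above the median level are tested. The replicate number as a block gave 8 falls, adding Muc5b (-0.46, adjusted p = 0.0218), and 10 mesenchymal rises in place of 5. Under it the limma adjusted p was 5.98e-04 for Scgb3a1 and 4.45e-05 for Reg3g, lower than without the block. It was also lower for Scgb3a2 (0.0074), Gabrp (0.00663), Scgb1a1 (0.107) and Muc5b. It was higher than without the block for Cbr2 (0.0381), Bpifb1 (0.00133), Hp (0.00222) and Bpifa1 (0.528). Only 1 of the 4 knockout arrays deviated most like its own number. Muc5b also passed with quantile normalization (-0.47) and array weights (-0.52), which ended the call of Cbr2 (-0.31). Without knockout replicates 1 and 4 together Cbr2 (-0.38) did not pass, and relative to Scgb1a1 the limma calls of Bpifb1 (-0.81) and Reg3g (-1.02) ended and the signs of Muc5b (0.035) and Hp (0.0075) turned. Leaving out 1 array at a time, 5 to 7 genes fell; the differences ranged from -0.59 to -0.27 for Scgb1a1, -1.28 to -0.74 for Scgb3a1, -0.50 to -0.32 for Cbr2 and -0.54 to -0.29 for Muc5b, and relative to Scgb1a1 from -0.15 to 0.30 for Muc5b, -0.25 to 0.0073 for Gabrp and -0.042 to 0.15 for Cbr2. Array weights counted knockout replicate 4 least (0.325, against 0.72 to 2.23 for the other arrays). They gave 5 rises among other club cell genes and 1 fall among carbonyl reductases, in place of 3 and 3. The mesenchymal marker mean as a covariate left 4 falls, with 985 falls and 776 rises over all genes; Scgb3a1 (-0.39), Cbr2 (-0.31) and Gabrp (-0.59) did not pass, and relative to Scgb1a1 Muc5b stood at 0.063, Bpifb1 (-1.14) and Reg3g (-0.52) not passing. The mesenchymal mean differs between the groups, with overlap, so its share and that of the group cannot be told apart. The cause was not tested. The alveolar type 2 marker mean as a covariate was added after the data were seen. It separates the groups without overlap, so its share and that of the group cannot be told apart. The loss of calls under it therefore decides nothing. It left 1 fall and 8 rises over all genes and 0 falls among the 10. Scgb3a1 stood at 0.51, Reg3g at 0.14, Scgb1a1 at -0.76, Scgb3a2 at -1.83 and Cbr2 at -0.35. Bpifb1 stood at -0.85, Gabrp at -0.37, Hp at -0.84, Muc5b at -0.45 and Bpifa1 at -0.15. Relative to Scgb1a1 it gave Bpifb1 -0.084, Scgb3a1 1.27, Reg3g 0.90, Muc5b 0.31 and Gabrp 0.39, none of which passed. The exact permutation test of the values relative to Scgb1a1 was added after the data were seen as well. Low signal limits Bpifa1 in both groups and Bpifb1 and Reg3g in knockout cells.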
